A study of Mus musculus with 2 samples.

Results

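The genes described here are 10 chemokines of the CC and CXC classes: Ccl2, Ccl3, Ccl4, Ccl5, Ccl7, Cxcl1, Cxcl2, Cxcl10, Cxcl12 and Cxcl16. They were taken by symbol from a deposited table of 53465 mouse genes, and all 10 were found, each in 1 row. The table holds 1 library of endothelial cells from animals treated with GFP and 1 from animals treated with NeuroD1. Both groups share the C57Bl/6 strain and the tie2-cre genotype, in which the Tie2 promoter drives Cre recombinase in endothelial cells and, as is known of such lines, also in some blood cells. Each library came from 10000 cells, and the labels speak of cells pooled from 3 mice without saying whether per library or in all. The study's title speaks of NeuroD1 gene therapy given intravenously for ischemic stroke. The vector, the time after treatment and whether these animals had a stroke are not stated in the labels used here.

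Chemokines are small secreted proteins that guide leukocytes along gradients and bind G-protein-coupled receptors. They are classed by their first cysteines, which are adjacent in CC chemokines and separated by 1 residue in CXC chemokines. At the blood vessel wall they are held on heparan sulfate and help leukocytes to arrest and cross. Most are induced by inflammatory signals through NF-kB or interferon, whereas Cxcl12 is made constitutively by brain endothelium and stromal cells.

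The class of a chemokine can be read in its coding sequence, and the stretches below show this for 9 of the members. Each line gives 10 codons from GENCODE M21 (GRCm38), 5′ to 3′ along the transcript, with the codons of the first cysteine pair in capitals.
Ccl2, chr11:82036494-82036523, plus strand: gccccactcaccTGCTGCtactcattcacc
Ccl7, chr11:82046526-82046555, plus strand: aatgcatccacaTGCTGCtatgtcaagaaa
Ccl4, chr11:83663470-83663499, plus strand: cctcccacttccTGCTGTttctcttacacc
Ccl5, chr11:83529230-83529259, minus strand: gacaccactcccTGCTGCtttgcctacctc
Cxcl1, chr5:90891484-90891513, plus strand: aatgagctgcgcTGTcagTGCctgcagacc
Cxcl2, chr5:90904130-90904159, plus strand: agtgaactgcgcTGTcaaTGCctgaagacc
Cxcl10, chr5:92348172-92348201, minus strand: aggacggtccgcTGCaacTGCatccatatc
Cxcl12, chr6:117171496-117171525, plus strand: ctgagctaccgaTGCcccTGCcggttcttc
Cxcl16, chr11:70459118-70459147, minus strand: gtcgctggaagtTGTtctTGTgatcgtacc
In Cxcl1 and Cxcl2 the 3 codons before the first cysteine encode glutamate, leucine and arginine, the ELR motif of chemokines that attract neutrophils. The other 3 CXC members lack it.

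Levels are given as FPKM, which is scaled by exon length and by a factor for each library. Where reads come from the 3′ end alone this scale understates long genes, so levels of genes that differ in length are compared with their reads beside them. The whole reads behind the values could be recovered, 2011130 for GFP and 2001426 for NeuroD1, of which 52.3% and 57.4% fell in 19 genes above 1000 FPKM. On the deposited scale 1 read is worth 1.13 times more FPKM in NeuroD1 than in GFP, although the recovered totals stood in a ratio of 0.995. The deposited scale thus does not follow those totals. As a check of the labels, Neurod1 was at 0.664 FPKM under GFP and 182 FPKM under NeuroD1. Of 10 endothelial markers none was at 0, and 8 lay above the background range given next in both libraries, among them Cldn5, a claudin that seals the barrier, with 33.9 FPKM in GFP and 31.5 in NeuroD1. As a measure of background, 1514 receptors for odours, pheromones and taste, most of which are not known in endothelium, had a median of 1.54 FPKM in GFP and 1.40 FPKM in NeuroD1. Their 95th percentiles were 4.39 and 4.79 FPKM, which are used below as the upper end of the chemoreceptor range. Each group is a single library, so differences have no replicate behind them and no p-value was computed. Intervals of ratios are exact 95% Clopper-Pearson intervals of the recovered reads and cover counting error only. Among 652 chemoreceptor genes with 20 reads or more, the interval excluded 1 for 10.7%.

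Only 2 of the 10 chemokines, Ccl2 and Cxcl12, lay above the chemoreceptor range, and both did so in both libraries. Ccl2, which attracts monocytes, was the most abundant, at 21.4 times the FPKM of Cxcl12 in GFP (764 against 256 reads), and took 69.7% of the reads of the 10 genes in GFP and 76.8% in NeuroD1. Cxcl12, the ligand of Cxcr4, followed. The 8 others lay below the upper end of the chemoreceptor range in both libraries, with at most 22 reads each.

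**Figure D1:**
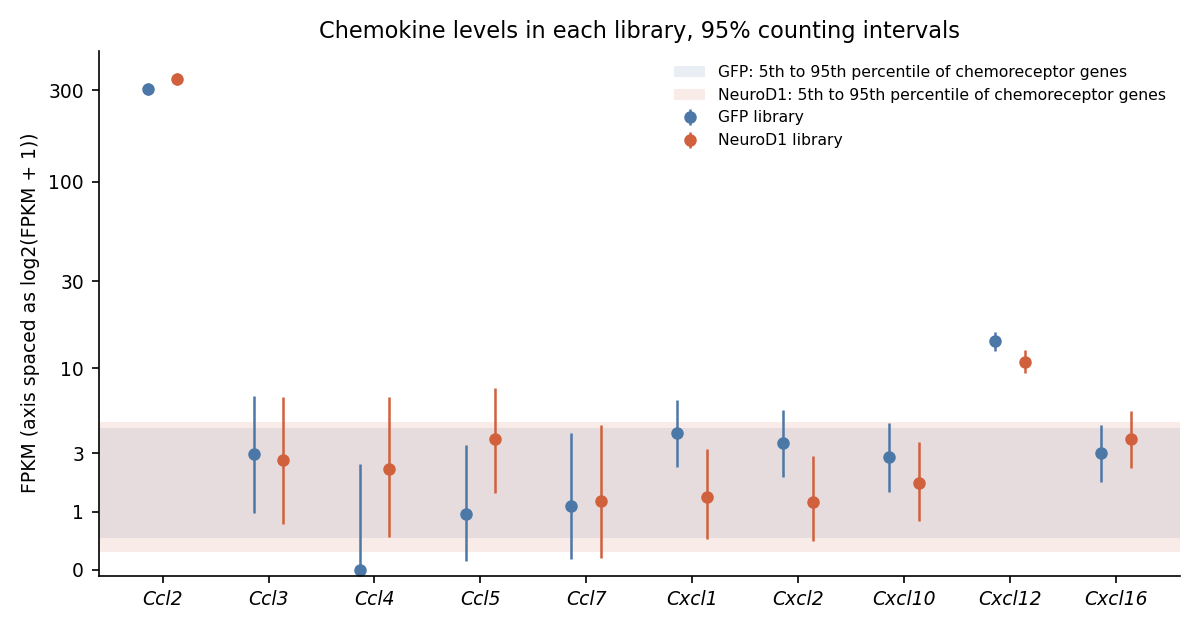
FPKM of each chemokine (y axis, spaced as log2(FPKM + 1)) in the GFP library (blue) and the NeuroD1 library (red). Points are single libraries, bars are exact 95% Poisson intervals of the recovered reads, and the shaded bands run from the 5th to the 95th percentile of chemoreceptor genes. Ccl2, at 304 and 343 FPKM, and Cxcl12, at 14.2 and 10.9 FPKM, are the points above the bands.

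Ccl2 (ENSMUSG00000035385, GRCm38 chromosome 11, 82035571 to 82037453, plus strand, 3 exons) stood at 304 FPKM under GFP (764 reads, 95% Poisson interval 283 to 326 FPKM). Under NeuroD1 it stood at 343 FPKM (761 reads, interval 319 to 368 FPKM). At the chemoreceptor median a gene of its length would hold 3.88 and 3.12 reads. Among 22040 protein-coding genes Ccl2 ranked 15 in both libraries, and with predicted genes (symbols starting with Gm) left out it ranked 3 in GFP.

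The ratio of NeuroD1 over GFP for Ccl2 was 1.13, with an interval of 1.02 to 1.25. This difference rests on the scale of the deposited values, since the reads themselves were nearly equal. With both libraries brought to the same total of recovered reads the ratio was 1.001 (interval 0.904 to 1.11), and with the same sum of FPKM it was 0.958 (interval 0.865 to 1.06). Of the 48 protein-coding genes with a mean of 50 to 1000 FPKM, 10 had a lower difference than Ccl2. The log2(FPKM + 1) difference of Ccl2, NeuroD1 minus GFP, was 0.17, and the median of the 48 genes was 0.32.

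Genes next to Ccl2 in abundance, named after their values were seen, were not markers of endothelium. Above it in GFP stood Atp5d, a subunit of mitochondrial ATP synthase, at 423 FPKM and the defensin Defb47 at 421 FPKM. Below it stood C1ql4 at 242 FPKM, the enamel gene Amelx at 214 FPKM and Speer2 at 170 FPKM. None of the 1138 words of 30 bases in the annotated Ccl2 transcripts occurred in an annotated transcript of another gene. Whether all reads counted for Ccl2 came from its mRNA was not tested.

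The neighbours of Ccl2 on chromosome 11 did not share its level. Ccl7, which binds some of the same receptors and is its nearest neighbour, had 2 reads in each library, or 1.13 FPKM with GFP and 1.28 FPKM with NeuroD1. Ccl11, an eosinophil attractant, had 1 and 2 reads, Ccl12 had 4 and 0, Ccl8 had 0 in both and Ccl1 had 4 and 2. A count of 3 reads, taken as the floor of detection, corresponds to 1.70 and 1.92 FPKM for Ccl7. No ratio is given for Ccl7, because both values are under that floor.

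Ccl3, Ccl4 and Ccl5, known from macrophages and T cells, lie together in another stretch of chromosome 11. Ccl3 (chromosome 11, 83647844 to 83649355, minus strand) had 5 reads in GFP and 4 in NeuroD1, at 2.95 and 2.68 FPKM (ratio 0.906, interval 0.180 to 4.21). Ccl4 (83662584 to 83664683, plus strand) had 0 reads in GFP, where the floor of 3 reads is 2.06 FPKM, and 3 reads or 2.33 FPKM in NeuroD1. Both values are at or under the floor, so no fold is given. Ccl5 (83525778 to 83530518, minus strand) had 2 and 7 reads, at 0.943 and 3.74 FPKM (ratio 3.96, interval 0.755 to 39.1). Ccl4 and Ccl5 were thus higher in NeuroD1 by value and Ccl3 was not, at counts too low to set any of the 3 apart from a ratio of 1. Between them lie Ccl9, with 35 and 28 reads, and Ccl6, with 15 and 22.

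**Figure D2:**
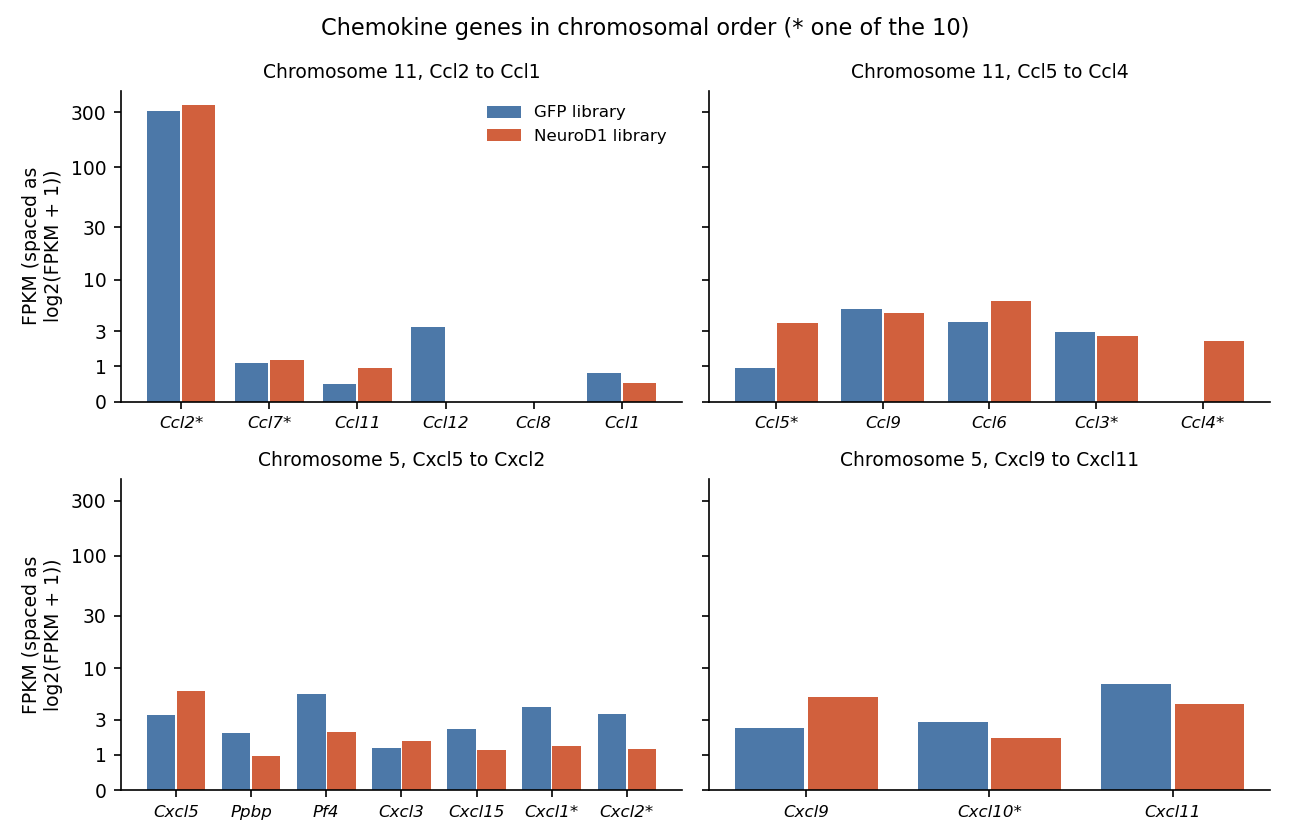
FPKM (y axis, spaced as log2(FPKM + 1)) of chemokine genes in their order along chromosomes 11 and 5, with the GFP library in blue and the NeuroD1 library in red. Bars are single values and start at 0, and asterisks mark the 10 chemokines described. Ccl2, at 304 and 343 FPKM, is the highest bar of each library, and its 5 neighbours stay at 3.37 FPKM or below.

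Cxcl1 and Cxcl2, the neutrophil attractants with the ELR motif, were both lower in the NeuroD1 library. Cxcl1 (ENSMUSG00000029380, chromosome 5, 90891241 to 90893115, plus strand, 4 exons) stood at 4.10 FPKM with 17 reads in GFP and at 1.37 FPKM with 5 reads in NeuroD1. Its ratio was 0.333, with an interval of 0.0961 to 0.941. Cxcl2 (ENSMUSG00000058427, chromosome 5, 90903871 to 90905938, plus strand, 4 exons) stood at 3.50 FPKM with 16 reads and at 1.24 FPKM with 5 reads, a ratio of 0.354 with an interval of 0.101 to 1.01. Only the interval of Cxcl1 excluded 1 on the deposited scale, while that of Cxcl2 also did so with the same total of recovered reads (0.0900 to 0.897) and the same sum of FPKM (0.0861 to 0.858).

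Both values of both genes lay within the chemoreceptor range. In GFP, 6.47% of chemoreceptor genes were at or above Cxcl1 and 9.05% at or above Cxcl2, and in NeuroD1 52.1% and 57.2% were. At the chemoreceptor median Cxcl1 would hold 6.39 reads in GFP and 5.14 in NeuroD1, and Cxcl2 7.05 and 5.66 reads. The NeuroD1 counts of 5 are thus near that level and the GFP counts of 17 and 16 above it. Of the 10774 protein-coding genes with a mean of 2 to 5 FPKM, 2.48% had a lower log2(FPKM + 1) difference than Cxcl1 and 3.02% a lower one than Cxcl2. Of the words of 30 bases in Cxcl2 transcripts, 7.79% also occur in Cxcl3, so reads of these paralogs may be split between them. Cxcl3 had 10 and 11 reads (ratio 1.25, interval 0.480 to 3.27).

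The upstream sequences of Cxcl1, Cxcl2 and Cxcl10, known targets of NF-kB, are shown and were chosen after their values were seen. They come from RefSeq (GRCm38.p6), where 5 of the 10 genes were matched: Cxcl1, Cxcl2, Cxcl10, Cxcl12 and Ccl3. Each runs over 250 bases up to the start of transcription, 5′ to 3′ on the strand of the gene. Capitals mark matches to the NF-kB consensus and, in the first part of the Cxcl10 sequence, to the interferon-stimulated response element, searched on both strands.
Cxcl1, chr5:90890995-90891244, plus strand: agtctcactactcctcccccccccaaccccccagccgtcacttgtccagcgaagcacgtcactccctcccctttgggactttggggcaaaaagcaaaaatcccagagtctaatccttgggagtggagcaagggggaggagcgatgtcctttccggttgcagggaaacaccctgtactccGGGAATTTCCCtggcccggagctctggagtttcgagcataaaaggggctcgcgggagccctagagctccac
Cxcl2, chr5:90903649-90903898, plus strand: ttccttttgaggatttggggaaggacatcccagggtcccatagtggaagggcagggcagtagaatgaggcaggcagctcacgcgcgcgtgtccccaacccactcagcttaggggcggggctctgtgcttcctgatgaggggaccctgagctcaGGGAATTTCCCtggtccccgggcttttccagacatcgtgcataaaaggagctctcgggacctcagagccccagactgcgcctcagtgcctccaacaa
Cxcl10, chr5:92348890-92349139, minus strand: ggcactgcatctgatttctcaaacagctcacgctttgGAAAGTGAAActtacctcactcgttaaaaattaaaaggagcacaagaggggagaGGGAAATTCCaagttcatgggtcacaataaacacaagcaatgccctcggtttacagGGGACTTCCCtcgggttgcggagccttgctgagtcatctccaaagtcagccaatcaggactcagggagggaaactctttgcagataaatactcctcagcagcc
Cxcl1 and Cxcl2 hold the same NF-kB word of 11 letters, read on both strands as 2 overlapping matches, which begins 71 bases before the start in Cxcl1 and 97 bases before it in Cxcl2. Cxcl10 holds 2 separate NF-kB matches, 159 and 103 bases before its start, and an interferon-stimulated response element match 213 bases before it. Of all 32851 upstream windows of this length in the table, 3.90% held an NF-kB match and 2.98% an interferon-stimulated response element match. The windows of Cxcl12 and Ccl3 held neither. A match describes the letters and was not tested for binding here, nor for a part in the differences of these genes.

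Cxcl1, Cxcl2 and Ccl3 have a high density of the pentamer ATTTA, the core of AU-rich elements that mark transcripts for rapid decay. The 3′ untranslated region of Cxcl2 holds 11 in 734 bases and that of Cxcl1 holds 7 in 592 bases. Ccl3 holds 5 in 409 bases. Among 19099 protein-coding genes with such a region of at least 100 bases, 99.7%, 99.5% and 99.5% had a lower density than Cxcl2, Cxcl1 and Ccl3. For Ccl4, Ccl7, Ccl2, Cxcl10 and Cxcl16 the shares were 96.1%, 90.2%, 83.9%, 74.1% and 52.0%, in that order. Decay of these transcripts was not tested. Ccl5 holds none and Cxcl12 holds 4 in 5188 bases, a density below that of most genes.

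Cxcl10 (ENSMUSG00000034855, chromosome 5, 92346638 to 92348889, minus strand, 4 exons), an interferon-induced ligand of Cxcr3 on T cells, stood at 2.81 FPKM with 14 reads in GFP and at 1.82 FPKM with 8 reads in NeuroD1. The ratio was 0.647, and its interval of 0.235 to 1.65 included 1. The flanking genes are known for ligands of the same receptor and differed in opposite directions. Cxcl9 stood at 2.40 FPKM with 16 reads and at 5.27 FPKM with 31 reads (ratio 2.19, interval 1.16 to 4.30). Cxcl11, which the deposited table lists as a polymorphic pseudogene, stood at 7.16 FPKM with 60 reads and at 4.46 FPKM with 33 reads (ratio 0.623, interval 0.395 to 0.968). Whether Cxcl11 yields a working ligand in these animals was not tested. Of the words of 30 bases in Cxcl11 transcripts, 42.3% also occur in transcripts of other genes, against 4.52% for Cxcl10 and 0.574% for Cxcl9.

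Cxcl12 (ENSMUSG00000061353, chromosome 6, 117168535 to 117181367, plus strand), which retains leukocytes at the outer face of brain vessels through Cxcr4, was lower in the NeuroD1 library. It stood at 14.2 FPKM in GFP (256 reads, Poisson interval 12.5 to 16.0 FPKM) and at 10.9 FPKM in NeuroD1 (174 reads, interval 9.35 to 12.7 FPKM). At the chemoreceptor median it would hold 27.9 and 22.4 reads. The ratio was 0.770, with an interval of 0.631 to 0.937 that excluded 1, and it ran from 0.654 to 0.800 over the other scalings, each with an interval below 1. The log2(FPKM + 1) difference was -0.35, while the 557 protein-coding genes with a mean of 10 to 20 FPKM had a median of 0.12, and 61 of them lay below Cxcl12. In bulk cells, fewer cells of a type and less RNA per cell cannot be told apart.

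Mural cells and fibroblasts of the vessel wall also express Cxcl12. The 8 mural markers summed to 27.8 FPKM in GFP and 25.7 FPKM in NeuroD1, and the 6 fibroblast markers to 19.0 and 16.3 FPKM, with 2 of 7 measured (Acta2 and Cspg4) and 0 of 6 measured members above 0 in log2(FPKM + 1) difference. None of these markers was at 0 in either library, but 97.7% and 96.0% of chemoreceptor genes were not either. Above the chemoreceptor range in both libraries lay 2 of the 8 mural and 1 of the 6 fibroblast markers. The potassium channel subunit Kcnj8, a pericyte marker named after its values were seen, had 19 and 3 reads (ratio 0.179, interval 0.034 to 0.608). Its levels of 3.38 and 0.604 FPKM lay within the chemoreceptor range. The 10 endothelial markers summed to 116 and 120 FPKM. Against 12.1% of protein-coding genes with an interval that excluded 1, 2 of the 9 markers with reads recovered had intervals above 1. These were, named after their values were seen, Egfl7, a secreted endothelial factor (ratio 1.78, interval 1.1996 to 2.65), and Vwf, the von Willebrand factor (ratio 1.34, interval 1.11 to 1.61, or 0.986 to 1.43 with the same total of recovered reads). Their part in the difference of Cxcl12 was not tested.

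Cxcl16 (ENSMUSG00000018920, chromosome 11, 70453983 to 70459984, minus strand, 5 exons) is made as a membrane-bound protein, and its shed form attracts cells with Cxcr6. It stood at 2.997 FPKM with 20 reads in GFP and at 3.73 FPKM with 22 reads in NeuroD1 (ratio 1.25, interval 0.649 to 2.41). Its difference was within counting error. Of the words of 30 bases in its transcripts, 18.6% also occur in other genes, so its reads may be shared. The proteases that shed it, Adam10 and Adam17, had 7.28 and 8.98 FPKM (ratio 1.23, interval 0.898 to 1.70) and 16.6 and 19.3 FPKM (ratio 1.16, interval 0.977 to 1.38), in that order.

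**Figure D3:**
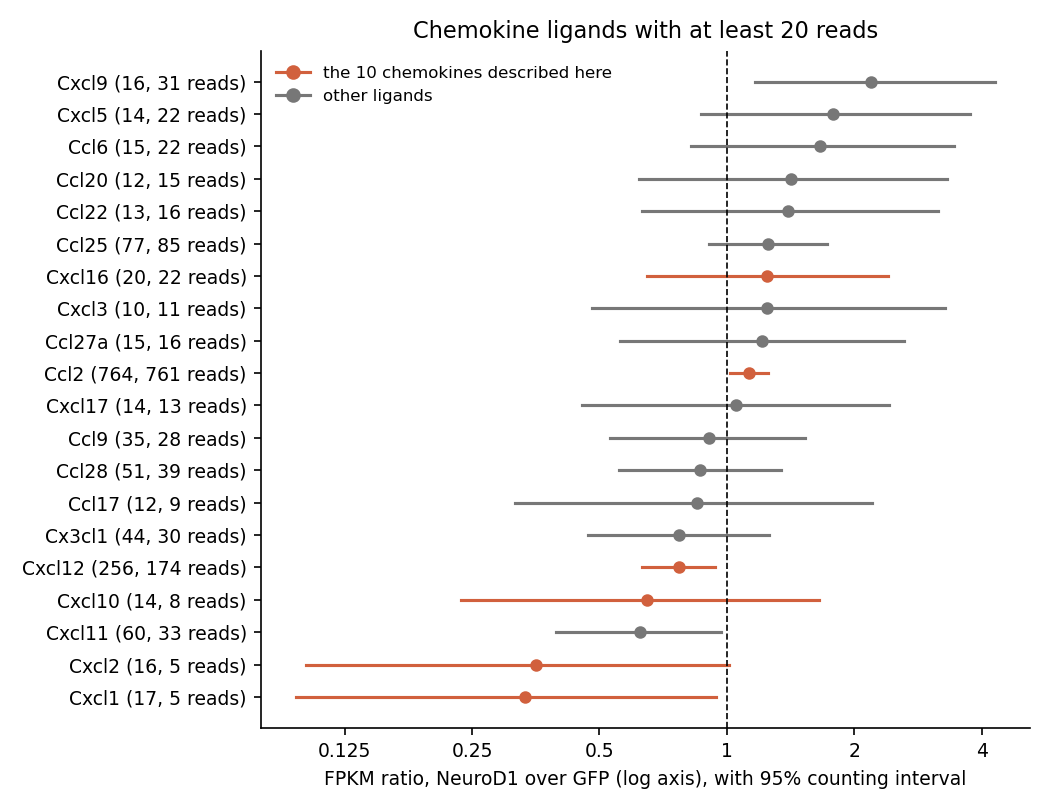
FPKM ratio of NeuroD1 over GFP (x axis, log scale) with exact 95% counting intervals for the chemokine ligands with at least 20 reads over both libraries; reads per library stand beside each name. Red marks the 10 chemokines described and grey the other ligands. The intervals of Cxcl1, Cxcl12 and Cxcl11 lie below 1 and those of Ccl2 and Cxcl9 above it.

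Differences were counted as past 2-fold at a log2(FPKM + 1) difference of at least 1 either way among genes with at least 5 FPKM in 1 library or both. Only Ccl2 and Cxcl12 met that minimum, and 0 of these 2 were past 2-fold. By the same rule 28.5% of 14679 genes and 6.55% of 6408 protein-coding genes were past it. With no minimum, 4 of the 10 were past 2-fold, Cxcl1 and Cxcl2 lower and Ccl4 and Ccl5 higher, against 6.07% of all 22040 protein-coding genes. Each of these 4 had under 20 reads in each library. Of the 6 chemokines with at least 20 reads over both libraries, 3 had an interval that excluded 1 (Ccl2 above it, Cxcl1 and Cxcl12 below it), against 12.1% of 14791 protein-coding genes. With the same total of recovered reads or the same sum of FPKM the count was also 3 of 6. Cxcl1, Cxcl2 and Cxcl12 were then below 1, and Ccl2 was no longer among them. The share of 12.1% holds for the deposited scale, and no such share is given for these scalings. They moved the median difference of protein-coding genes to -0.15 and -0.19, in that order.

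The 10 chemokines had no shared direction. In log2(FPKM + 1), 5 were above 0 and 5 below, with a median of -0.0034, beside -0.016 for protein-coding genes with at least 1 FPKM. Of the 5 CC members 4 were above 0, all but Ccl3, and of the 5 CXC members 4 were below 0, all but Cxcl16, at values of which most lay within counting error. Ccl7 and Ccl2 were below 0, at -0.030 and -0.062, once the libraries were given an equal sum of FPKM.

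**Figure D4:**
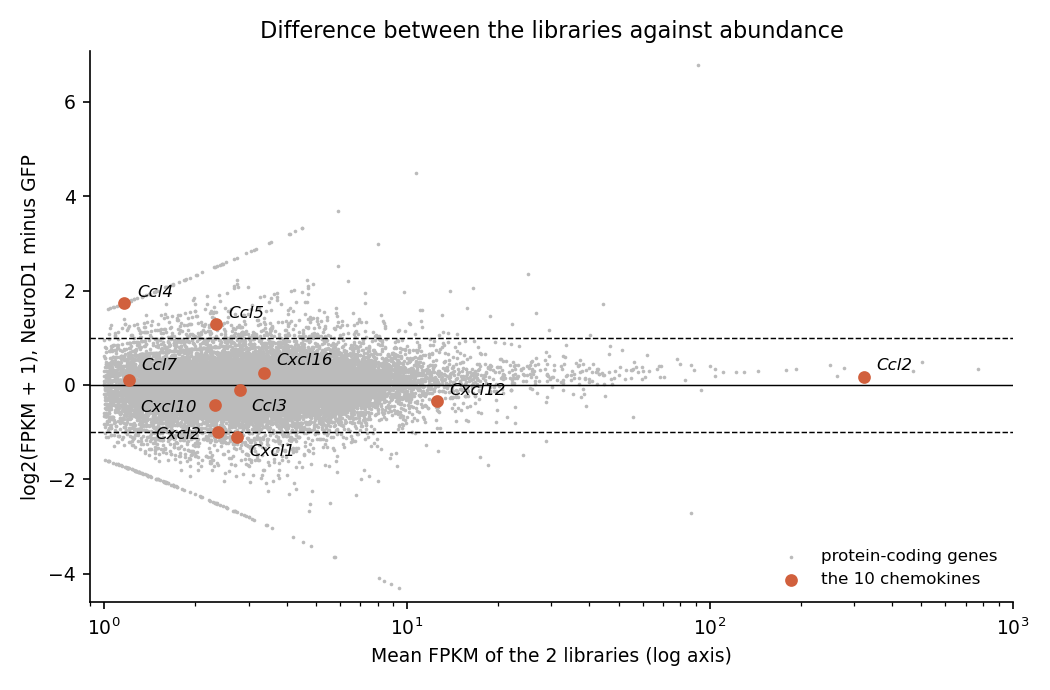
Difference in log2(FPKM + 1), NeuroD1 minus GFP (y axis), against the mean FPKM of the libraries (x axis, log scale) for protein-coding genes with a mean of 1 to 1000 FPKM (grey) and the 10 chemokines (red). Dashed lines mark a difference of 1 either way. Cxcl12 and Ccl2 stand to the right at -0.35 and 0.17, and the other 8 have a mean below 5 FPKM. Of these, Ccl4 and Ccl5 lie above the upper dashed line, Cxcl1 and Cxcl2 lie just below the lower one, and the rest lie between.

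Among the 29 other chemokine ligands, 24 reached 1 FPKM and 12 of these were above 0, with a median difference of -0.027. Of the 12 with at least 5 FPKM in 1 library or both, 1 was past 2-fold, against 6.55% of protein-coding genes. This was the platelet chemokine Pf4 at 5.65 and 2.13 FPKM, which had 9 and 3 reads (ratio 0.378, interval 0.066 to 1.51). The interval excluded 1 for 2 of the 14 that reached 20 reads, Cxcl9 above and Cxcl11 below it, a share near the 12.1% of protein-coding genes. The lower bound of Cxcl9 was 0.988 with the same sum of FPKM, and the upper bound of Cxcl11 was 1.01 with the same median of protein-coding genes. The ligands of highest mean FPKM were Ccl17, at 10.6 and 8.98 FPKM (ratio 0.849, interval 0.316 to 2.20), and Cxcl17, at 8.33 and 8.76 FPKM (ratio 1.05, interval 0.455 to 2.41). Of the 29, 4 lay above the chemoreceptor range in both libraries, these being Ccl17, Cxcl17 and, named after their values were seen, Ccl25, which draws T cell precursors to the thymus, at 4.68 and 5.85 FPKM and Ccl26, known from eosinophil recruitment, with 9.63 and 5.45 FPKM from 6 and 3 reads.

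Of the 23 chemokine receptors, through which these ligands act, none lay above the chemoreceptor range in both libraries. Ccr7 alone met the minimum of 5 FPKM, and it was not past 2-fold, as 6.55% of protein-coding genes were. The median difference of the receptors was -0.052, with 10 of 23 above 0. Of 17 with at least 20 reads none had an interval that excluded 1, against 12.1% of protein-coding genes. The receptors of highest mean FPKM were Ccr7, at 3.66 and 6.22 FPKM (ratio 1.70, interval 0.866 to 3.42), and Cxcr5, at 3.67 and 4.92 FPKM (ratio 1.34, interval 0.779 to 2.33). Chosen after their values were seen, as receptors of members, Ccr2, the receptor of Ccl2, stood at 2.21 and 2.43 FPKM, and Cxcr4 at 3.51 and 3.12 FPKM. Ackr3, which takes up Cxcl12, stood at 1.35 and 1.38 FPKM. Absence of these receptors cannot be read from such levels, since the background is of the same size.

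Of the 19 genes of ligand processing and presentation, 18 were measured, 7 of them above 0, with a median of -0.075. None of the 4 that met the minimum of 5 FPKM was past the log2(FPKM + 1) difference of 1, against 6.55% of protein-coding genes. Of 16 with at least 20 reads, Sdc1, a heparan sulfate proteoglycan, at 1.31 and 3.10 FPKM (ratio 2.37, interval 1.11 to 5.38), and Ext1, which builds heparan sulfate, at 2.13 and 3.49 FPKM (ratio 1.64, interval 1.06 to 2.55), had intervals above 1. With the same total of recovered reads their lower bounds were 0.984 and 0.945. Mmp9, a protease that trims chemokines, had an interval below 1 (5.24 and 2.32 FPKM, ratio 0.442, interval 0.232 to 0.805).

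Of 22 genes that control chemokine transcripts, such as NF-kB subunits, interferon factors and RNA-decay proteins, 7 were above 0, with a median of -0.13. None of the 17 that met the minimum of 5 FPKM was past 2-fold, against 6.55% of protein-coding genes. The interval excluded 1 for 12.1% of all protein-coding genes with at least 20 reads. Of the 20 genes of this list with as many reads, Irf3, at 4.08 and 6.70 FPKM (ratio 1.64, interval 1.02 to 2.69), and Cebpb, at 25.9 and 35.1 FPKM (ratio 1.36, interval 1.01 to 1.83), had intervals above 1. With the same total of recovered reads their lower bounds were 0.903 and 0.895. Jun, an AP-1 subunit, at 40.9 and 34.1 FPKM, had an interval just below 1 (ratio 0.834, interval 0.695 to 0.999), whose upper bound was 1.04 with the same median of protein-coding genes. Fos, its partner, stood at 40.8 and 35.8 FPKM (interval 0.710 to 1.08). The NF-kB target Nfkbia, named after its values were seen, stood at 19.1 and 14.3 FPKM (ratio 0.750, interval 0.503 to 1.11).

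Leukocytes are a source of Ccl3, Ccl4 and Ccl5 and respond to most of the others. Above the chemoreceptor range in both libraries lay 3 of 16 microglia and macrophage markers and 3 of 10 neutrophil markers. Of the T and NK cell markers, 2 of 10 did. Reads alone do not set a marker apart, since 97.7% of chemoreceptor genes in GFP and 96.0% in NeuroD1 were above 0. The 16 microglia and macrophage markers summed to 63.2 FPKM in GFP and 57.7 FPKM in NeuroD1, with 5 of 16 above 0 in difference and none listed at 0. The highest were Tyrobp, a signalling adaptor, at 11.5 and 17.7 FPKM and Cd68 at 9.004 and 4.89 FPKM. The 10 neutrophil markers summed to 76.7 and 78.3 FPKM, with 5 of 10 above 0 and none at 0. Of the 7 with at least 5 FPKM in 1 library or both, 2 were lower and 1 higher by the 2-fold rule, which 6.55% of protein-coding genes passed. The protease Elane, at 11.96 and 1.56 FPKM, was lower, with 26 and 3 reads (interval of the ratio 0.025 to 0.426). S100a8, at 7.83 and 2.96 FPKM, was lower with 12 and 4 reads, and its interval of 0.089 to 1.25 included 1. Retnlg, at 3.72 and 10.96 FPKM, was higher, but its reads were not recovered. S100a9, the partner of S100a8, went the other way, at 10.4 and 20.6 FPKM (interval of the ratio 0.931 to 4.42), and Ngp was highest on average, at 19.3 and 21.8 FPKM.

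The 10 T and NK cell markers summed to 55.1 FPKM in GFP and 68.9 FPKM in NeuroD1, with 4 of 9 measured members above 0 and Gzmb at 0 in GFP. The granzyme Gzma, at 25.6 and 39.8 FPKM (ratio 1.55, interval 1.09 to 2.22, or 0.965 to 1.97 with the same total of recovered reads), held the largest share of that sum, and Klrb1c, an NK cell receptor, stood at 7.19 and 6.58 FPKM. The 6 platelet markers, which include the chemokines Pf4 and Ppbp, summed to 18.6 and 12.4 FPKM with 1 of 6 (Gp5) above 0, and Itga2b, a platelet integrin, stood at 5.73 and 4.79 FPKM. The 8 astrocyte markers summed to 22.8 and 22.5 FPKM with 4 of 8 above 0. Of the platelet markers 1 of 6, and of the astrocyte markers 0 of 8, lay above the chemoreceptor range in both libraries. Named after their values were seen, the glutamate transporter Slc1a2 had 21 and 60 reads (ratio 3.24, interval 1.94 to 5.601) and the folate enzyme Aldh1l1 had 33 and 11 reads (ratio 0.378, interval 0.172 to 0.766), in opposite directions. The part of these cells in the chemokine values was not tested.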

How the data were processed

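RNA of isolated endothelial cells was measured in 2 libraries, 1 per group, prepared with DRUG-seq primers, per the labels' protocols. The authors deposited FPKM values per gene. GRCm38, featureCounts 1.6.3, Bowtie2 2.3.5.1 and DESeq are named, with no role, per the submitters' processing notes. How strand, multi-mapping reads and molecular identifiers were handled is not given in the sources used. DRUG-seq primes at the poly(A) tail, and where reads come from the 3′ end alone, FPKM understates long transcripts.

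FPKM times merged exon length in GENCODE M21 gave whole reads within 0.02 for 95.7% of genes, all 10 chemokines included. The authors' scale made 1 read worth 1.13 times more in NeuroD1 than in GFP. Differences are log2(FPKM + 1), which understates changes of low genes. Reads may include copies of 1 molecule, so intervals and the floor of 3 reads cover counting error only.

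The members and lists were chosen with earlier results of these data known. Named genes were the 10 members and, per list, those past 2-fold, those with at least 20 reads and an interval excluding 1, and the 2 of highest mean FPKM, leukocyte markers included; other genes are said to be named after their values were seen, or are neighbours or cell checks. A gene that the rule names and a coding stretch are not reported here. A list symbol with several rows was taken from the row of highest mean FPKM. Members with at least 1 FPKM in either library counted as measured. Reads and intervals were tested on simulated data. Alternatives were pseudocounts, FPKM minimums, scalings and background subtraction. The tools were Python 3.11.15 with pandas 2.3.3, numpy 2.4.6 and scipy 1.17.1, and matplotlib 3.10.9 for figures.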

Additional observations from a re-analysis of the deposited data

How the results depend on the processing

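No paired analysis was possible because only 1 library stands for each group, and for that reason none could be left out. Scaling to the same total of recovered reads was chosen after seeing the data. The median difference of protein-coding genes, -0.016, was -0.19 with an equal sum of FPKM and -0.15 with the same total of recovered reads. The count of chemokines past 2-fold, 0, was 4 at 1 FPKM in 1 library or both and 4 with no filter, since low genes then enter, and 0 under the other settings run. The median difference of the 10 chemokines, -0.0034, was 0.014 with a pseudocount of 0.1, -0.17 with the same sum of FPKM, -0.11 with the same total of recovered reads, 0.033 with the same median of protein-coding genes and -0.043 with the chemoreceptor median subtracted. In the same order, with a pseudocount of 5 placed second, the median was -0.034, -0.012, -0.23, -0.17, 0.021 and -0.0054 for other ligands, and -0.066, -0.027, -0.23, -0.18, -0.0099 and 0 for receptors. The share of protein-coding genes past 2-fold, 6.55%, was 1.44% with a pseudocount of 5, 11.5% with the chemoreceptor median subtracted and 0.904% at 5 FPKM in both libraries. The difference of Ccl2, 0.17, was -0.062 with the same sum of FPKM. Of 70 differences of single chemokines under other settings, 66 stayed within counting error of the first value. Differences of Ccl3, Cxcl1, Cxcl2, Cxcl10 and Cxcl12 were negative under all settings run, and those of Ccl4, Ccl5 and Cxcl16 were positive. The settings reuse the same reads, so a kept sign does not lessen counting error. Reads limit most members: 4 of the 10 had under 20 over both libraries. For shifts without a stated reason, the cause was not tested.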
